A study of Mus musculus with 12 samples.

Results

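The genes described here are 10 inhibitors that cells make in response to signaling through extracellular signal-regulated kinase (ERK), the last kinase of the Ras, Raf and MEK cascade below growth factor receptors. They were taken by gene name, and the set was proposed with earlier results of these data known: Dusp1, Dusp4, Dusp5, Dusp6 and Dusp14, which encode dual-specificity phosphatases, Spry1, Spry2 and Spry4, which encode Sprouty proteins, and Spred1 and Spred2, which encode Sprouty-related proteins. All 10 were among the 55901 genes of the table, and all 10 passed the filter on low values that 15016 genes passed (a mean of at least 0.5 FPKM over the 12 libraries, FPKM being the number of sequenced fragments scaled by exon length and library size). Primary cortical neurons were prepared from newborn C57BL/6J mice, and poly(A) RNA was sequenced, with 4 libraries in each of 3 groups. Cultures labelled Control form the reference, those labelled Trauma were injured by a mechanical scratch, and those labelled Tra_TGF, named Trauma+TGF-β1 below, were scratched and treated with transforming growth factor β1 (TGF-β1) at 10 ng/mL for 24 h. Cultures of all groups had received arabinosylcytosine, an inhibitor of DNA synthesis that limits the growth of glia. The labels do not say whether the 4 libraries of a group came from separate litters or dishes, so the p-values below measure the spread between these libraries, which may be technical.

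The feedback works at several levels of the cascade. Dual-specificity phosphatases remove the activating phosphates from ERK and, for some members, from the related stress kinases JNK and p38. Sprouty and Spred proteins act further upstream, between the receptor and Raf, and Spred proteins bring the Ras inactivator neurofibromin to the membrane. Many of these genes are transcribed within minutes of ERK activation, so that their mRNA is widely read as a sign of recent pathway activity, and in cortical neurons neurotrophins and synaptic activity are known inducers.

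Every library held between 15052486 and 17381671 reads on genes, as recovered from the FPKM values. The share of mitochondrial reads was 2.12% to 2.97% in Control, with 2.17% to 2.30% in the Trauma libraries, and was highest in Trauma+TGF-β1 at 2.69% to 3.23%. The neuronal identity of the cultures was checked with 12 neuronal markers, whose summed level was 1695 to 1752 FPKM in Control, 1496 to 1600 FPKM in Trauma and 1458 to 1498 FPKM in Trauma+TGF-β1. Much of this sum is Tubb3, at a mean of 960, 842 and 739 FPKM in the same order of groups. Of the 12 neuronal markers 2 rose and 3 fell in Trauma against Control, with a median log2 fold change of -0.01, and 4 rose and 4 fell in Trauma+TGF-β1 against Control. The cultures also held glial RNA. The 10 astrocyte markers summed to 218 to 247 FPKM in Control, 278 to 340 FPKM in Trauma and 292 to 313 FPKM in Trauma+TGF-β1, and 8 of the 10 rose in Trauma over Control. The 10 microglial markers summed to 20.9 to 25.0, 31.4 to 40.2 and 25.7 to 29.5 FPKM in the same order of groups, and 3 of the 5 tested rose in Trauma. The 10 markers of the oligodendrocyte lineage summed to 54.0 to 60.3, 69.7 to 77.2 and 66.4 to 73.3 FPKM, with 3 of 7 tested higher in Trauma. The 11 vascular and fibroblast markers stayed at or under 5.09 FPKM in sum, and Cldn5, which defines brain endothelium, had no more than 3 reads in any library. In bulk RNA a change in the number of cells of a type and a change in RNA per cell cannot be told apart, and the part of these glial shifts in the results below was not tested.

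The promoters of the members are shown first, with a search for the letters of known response elements near their start sites. The RefSeq promoter table for GRCm38.p6 held 8 of the 10 members. Dusp4 and Spry4 had no entry. The 250 bases before the start were searched together with the 50 bases after it, on both strands, for the cAMP response element TGACGTCA, the AP-1 site TGACTCA, the ETS core CGGAAG, the CArG box bound by serum response factor, and the SMAD element GTCTAGAC. The upstream 250 bases of 4 members are given below, 5′ to 3′ on the strand of the gene, with the matched motifs in capitals. Dusp1 (chr17:26508473-26508722, minus strand) holds the cAMP response element, Dusp5 (chr19:53528895-53529144, plus strand) holds adjacent CArG boxes, and Dusp6 (chr10:99262981-99263230, plus strand) and Spred2 (chr11:19924192-19924441, plus strand) each hold the ETS core read on the opposite strand.
Dusp1: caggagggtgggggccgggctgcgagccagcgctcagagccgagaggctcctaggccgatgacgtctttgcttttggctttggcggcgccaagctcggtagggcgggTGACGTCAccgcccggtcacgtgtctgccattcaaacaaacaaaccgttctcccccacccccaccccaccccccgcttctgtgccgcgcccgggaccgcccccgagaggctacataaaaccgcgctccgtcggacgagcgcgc
Dusp5: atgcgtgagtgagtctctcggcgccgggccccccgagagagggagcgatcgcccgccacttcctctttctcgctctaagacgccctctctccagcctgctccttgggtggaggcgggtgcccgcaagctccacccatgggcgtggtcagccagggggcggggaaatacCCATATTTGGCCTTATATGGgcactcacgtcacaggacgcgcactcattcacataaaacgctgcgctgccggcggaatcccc
Dusp6: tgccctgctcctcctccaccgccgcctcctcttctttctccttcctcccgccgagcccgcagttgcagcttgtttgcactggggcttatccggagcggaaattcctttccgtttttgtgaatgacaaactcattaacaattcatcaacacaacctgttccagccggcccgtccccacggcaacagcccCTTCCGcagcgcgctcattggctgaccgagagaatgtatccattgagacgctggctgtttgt
Spred2: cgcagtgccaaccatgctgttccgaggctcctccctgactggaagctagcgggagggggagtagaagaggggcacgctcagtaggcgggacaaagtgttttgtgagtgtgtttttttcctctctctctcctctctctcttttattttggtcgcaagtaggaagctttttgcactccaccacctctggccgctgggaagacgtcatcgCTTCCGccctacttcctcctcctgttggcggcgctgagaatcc

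The full cAMP response element of Dusp1 began at position -143 from the start, and 1.79% of all 32851 promoters of this length held one. The CArG boxes of Dusp5 began at positions -82 and -72, against 1.63% of promoters with at least 1 such box. The ETS core was found in 4 of the 8 members, namely Dusp6, Dusp14, Spred1 and Spred2, against 16.9% of all promoters. The windows of the 8 members held 57.0% to 72.3% GC, against a median of 52.7% over all promoters. The shares were not adjusted for this difference. None of the 8 held the AP-1 site, found in 5.2% of promoters, or the SMAD element, found in 0.213%. Spry1 and Spry2 held none of the 5 motifs in this window. A match is a run of letters and was not tested as a bound site. The RefSeq start of Dusp1 lies within the deposited gene model, which runs from 26505590 to 26562128 on chromosome 17 and overlaps the neighbouring gene Ergic1 by 640 bases. The strand setting of the read counting is not given in the sources used here, so reads in the overlap could belong to either gene. Between Trauma and Control Ergic1 itself differed by 0.04 on the log2 scale (limma adjusted p = 0.737).

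In the GRCm38 coordinates of the table Dusp4 lies at chr8:34807297-34819894, Dusp5 at chr19:53529109-53542431, Dusp6 at chr10:99263231-99267489, Spred1 at chr2:117121374-117182279 and Spred2 at chr11:19924375-20024026. In Control cultures the members fell into 4 ranges of level per kilobase. Spred2 and Spred1 were the most abundant, at 14.9 ± 0.808 and 13.7 ± 0.387 FPKM (mean ± SD, n = 4). Dusp14, Spry2 and Dusp6 followed at 8.31 ± 0.941, 7.90 ± 0.633 and 7.16 ± 1.11 FPKM, and their ranges over the 4 libraries overlapped. Dusp4, Spry1 and Dusp1 lay at 3.13 ± 0.807, 2.38 ± 0.236 and 2.07 ± 0.193 FPKM, again with overlapping ranges. Dusp5 and Spry4 were the lowest, at 1.02 ± 0.231 and 0.814 ± 0.200 FPKM, and overlapped each other. Among all tested genes the mean Control level of Spred2 stood at the 76.3 percentile and that of Spry4 at the 11.3 percentile. The ranges of the 4 tiers did not overlap in the Control libraries.

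**Figure D1:**
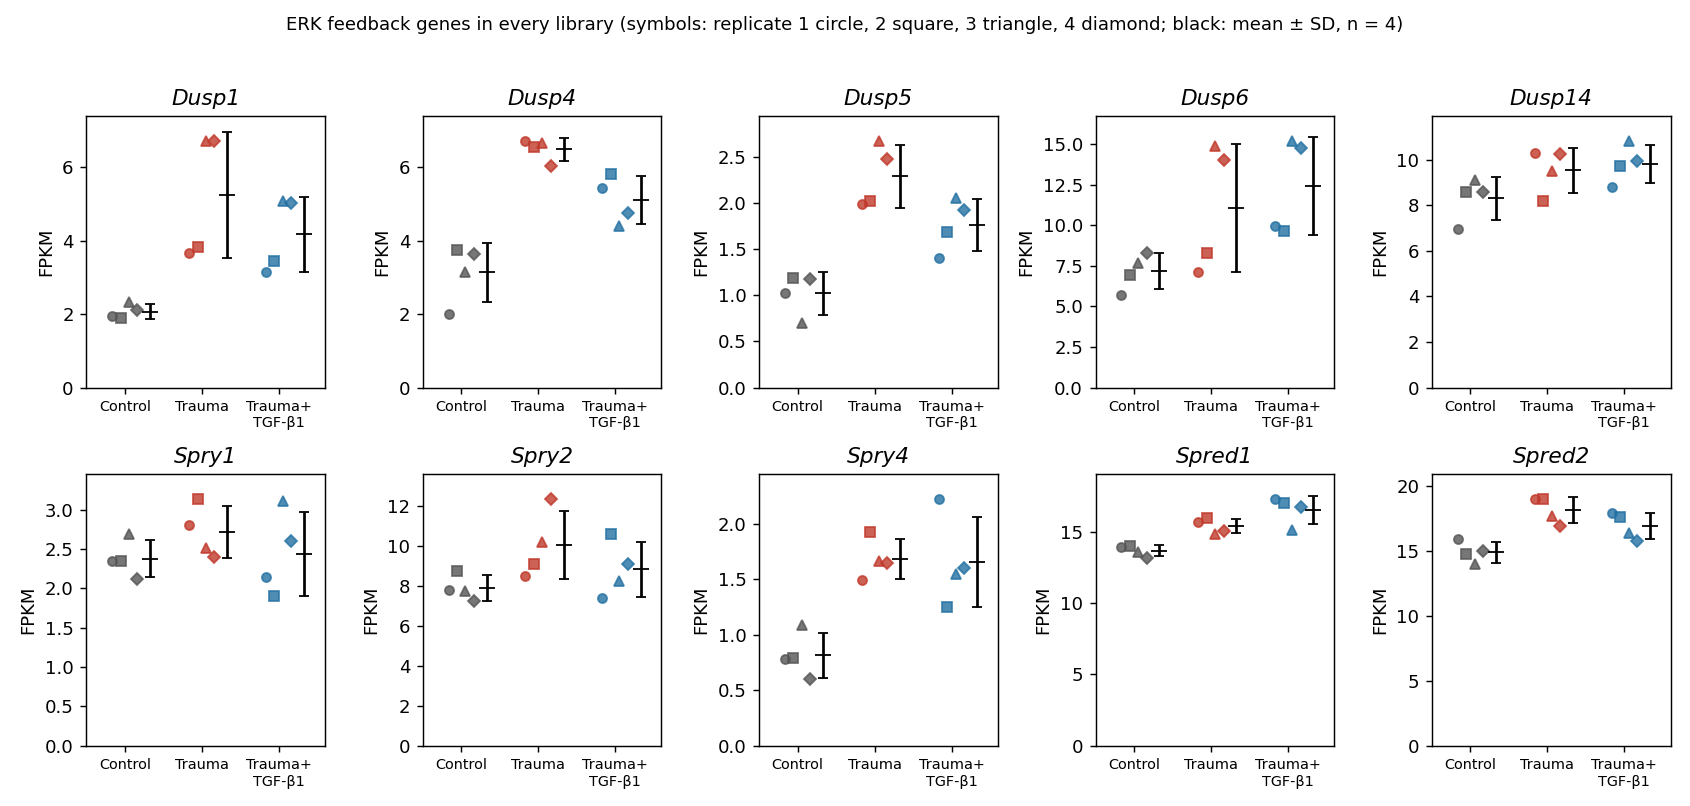
FPKM of each of the 10 genes (vertical axis, from 0) in the 4 libraries of each group (Control, Trauma, and Trauma with TGF-β1), with a symbol for each replicate number and the mean ± SD (n = 4) in black. Dusp1, Dusp4, Dusp5 and Spry4 show no overlap between the Control libraries and either scratched group, whereas Spry1 and Dusp14 overlap throughout.

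The first comparison, Trauma against Control, addressed what a mechanical scratch did to these genes after 24 h. Of the 10 members 6 rose and none fell: the nuclear phosphatases Dusp1, Dusp4 and Dusp5, the Sprouty gene Spry4, and both Spred genes. The largest fitted change was that of Dusp1, 2.38-fold (95% confidence interval 1.71 to 3.33). Among all 15016 genes tested 3.5% rose by the same rule (limma, Benjamini-Hochberg adjusted p at most 0.05) and 5.82% changed in either direction. The fitted log2 fold change was above 0 for all 10 members, and its median was 0.46 over the members against -0.0025 over all genes tested. In 6 members all 4 Trauma libraries lay above all 4 Control libraries, as was the case for 6.25% of the genes tested.

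Dusp1 encodes a nuclear phosphatase that acts on p38 and JNK as well as on ERK, and is an immediate early gene. Its level was 1.94, 1.90, 2.32 and 2.12 FPKM in Control libraries 1 to 4, and 3.67, 3.83, 6.73 and 6.72 FPKM in Trauma libraries 1 to 4. All Trauma values were above all Control values, but they formed a lower and an upper pair. The log2 fold change (log2FC) was 1.25 (standard error, SE, 0.22, limma adjusted p = 0.00639).

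Dusp4 encodes a further nuclear phosphatase of ERK, JNK and p38. Its level was 1.99, 3.76, 3.13 and 3.65 FPKM in Control and 6.72, 6.55, 6.65 and 6.03 FPKM in Trauma. The Trauma libraries lay close together, with a coefficient of variation of 4.81% against 25.8% in Control, where library 1 was the lowest. The log2FC was 1.07 (SE 0.16, adjusted p = 0.00263 by limma); the mean went from 3.13 to 6.49 FPKM.

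Dusp5 encodes a nuclear phosphatase that is selective for ERK. Its level was 1.02, 1.19, 0.694 and 1.18 FPKM in Control and 1.99, 2.02, 2.68 and 2.48 FPKM in Trauma, with no overlap. The log2FC was 1.11 (SE 0.18, limma adjusted p = 0.00331). These Control values rest on 27 to 50 reads, for which counting error alone is 14.1% to 19.2% of the value, close to the observed coefficient of variation of 22.6%.

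Dusp6 encodes the cytoplasmic phosphatase that is specific for ERK. Its level was 5.73, 6.95, 7.68 and 8.31 FPKM in Control and 7.12, 8.27, 14.9 and 14.0 FPKM in Trauma. Trauma libraries 3 and 4 were above every Control library, while Trauma libraries 1 and 2 were within the Control range. The log2FC was 0.57 (SE 0.24) with a limma adjusted p of 0.215, and the 95% confidence interval of the fold ran from 1.03 to 2.15. The coefficient of variation in Trauma was 35.6%, against a counting error of 3.48% to 5.22% at the 367 to 824 reads behind the values.

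Dusp14 encodes a small atypical phosphatase without the kinase-binding domain of the other phosphatases. It ranged from 6.95 to 9.12 FPKM in Control and from 8.16 to 10.3 FPKM in Trauma. The log2FC was 0.21 (SE 0.10, limma adjusted p = 0.269). The groups overlapped, and the interval of the fold ran from 0.997 to 1.34.

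The Sprouty genes, whose products block the signal between receptor and Raf, are Spry1, Spry2 and Spry4, of which 1 rose. Spry4 was at 0.779, 0.792, 1.08 and 0.600 FPKM in Control and at 1.50, 1.93, 1.67 and 1.64 FPKM in Trauma. All Trauma libraries lay above all Control libraries, with a log2FC of 0.99 (SE 0.19, limma adjusted p = 0.00979). Spry2 was at 7.82, 8.76, 7.77 and 7.24 FPKM in Control and at 8.48, 9.12, 10.2 and 12.4 FPKM in Trauma. These groups overlapped in the lowest Trauma library, and the log2FC of 0.34 had a SE of 0.13 and a limma adjusted p of 0.15. Spry1 was at 2.12 to 2.69 FPKM in Control and 2.40 to 3.14 FPKM in Trauma. Its log2FC was 0.19 (SE 0.14, limma adjusted p = 0.532), with an interval of the fold from 0.92 to 1.41. Whether Spry4 changed more than Spry1 or Spry2 was not tested.

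The Spred genes changed by small amounts that were measured with little spread. Spred2 was at 15.9, 14.8, 14.0 and 15.0 FPKM in Control and at 19.0, 19.0, 17.7 and 17.0 FPKM in Trauma. The groups did not overlap, and the log2FC was 0.29 (SE 0.06, limma adjusted p = 0.0109). Spred1 was at 13.9, 14.0, 13.6 and 13.2 FPKM in Control and at 15.7, 16.0, 14.9 and 15.1 FPKM in Trauma. All Trauma values were higher, by a log2FC of 0.18 (SE 0.05, limma adjusted p = 0.0426). Spred1 lies close to the threshold: 13 of 28 alternative fits called it (adjusted p from 0.0201 to 0.123), and with 1 library left out the call held in 2 of 12 fits, those without Trauma+TGF-β1 library 1 or 3.

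The second comparison, Trauma+TGF-β1 against Trauma, asked whether TGF-β1 changed these genes in scratched neurons. None of the 10 members was called by limma, where 12.3% of all genes tested were, and a limma fit weighted by recovered reads (voom) called none either. At an unadjusted p of at most 0.05 there was 1 member, Spred1. The fitted log2 change was below 0 for 7 members and above 0 for 3, with a median of -0.13 against 0.0052 over all genes tested. In 1 member, Dusp4, the groups did not overlap, as was the case for 22.2% of the genes tested in either direction. With 1 library left out the count became 1 in 2 of 12 fits, through Dusp4 without Control library 1 and through Spred1 without Trauma+TGF-β1 library 3.

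The nuclear phosphatases, with a GC content of 54.0% to 56.7%, had the lowest fitted values in the main fit. After a correction for GC content the log2FC was -0.20 for Dusp1, -0.22 for Dusp4 and -0.22 for Dusp5. Spry2 was then the lowest, at -0.24. Spry1, with a GC content of 56.7%, went from -0.16 to -0.03. Dusp4 was at 5.44, 5.82, 4.40 and 4.74 FPKM in Trauma+TGF-β1, below all 4 Trauma libraries, a log2FC of -0.35 (SE 0.16, limma adjusted p = 0.186). Its interval of the fold, 0.614 to 1.01, reached just past 1. With only these scratched groups in the fit, Dusp4 was called lower (limma adjusted p = 0.0329), as 2357 of 15016 genes were called in either direction, and its adjusted p over 28 alternative fits ran from 0.0258 to 0.442. Dusp5 was at 1.41, 1.68, 2.05 and 1.92 FPKM, overlapping Trauma, with a log2FC of -0.36 (SE 0.18, limma adjusted p = 0.204). Dusp1 was at 3.15, 3.45, 5.09 and 5.02 FPKM, with a log2FC of -0.29 (SE 0.22, limma adjusted p = 0.424). As in Trauma, Dusp1 formed a lower pair in libraries 1 and 2 and an upper pair in libraries 3 and 4. The intervals of the fold were 0.598 to 1.02 for Dusp5 and 0.586 to 1.14 for Dusp1, so these data allow a sizeable decrease as well as none.

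Dusp6 had the only fitted phosphatase value above 0.2 on the log2 scale. It was at 9.96, 9.66, 15.2 and 14.8 FPKM in Trauma+TGF-β1, and the log2FC against Trauma was 0.20 (SE 0.24, limma adjusted p = 0.63). Dusp14, at 8.81 to 10.8 FPKM, differed from Trauma by 0.05 on the log2 scale (limma adjusted p = 0.797). The fold interval of Dusp6 was 0.798 to 1.66, and that of Dusp14 was 0.892 to 1.20.

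Spry4 was at 2.22, 1.25, 1.55 and 1.60 FPKM in Trauma+TGF-β1, on both sides of the Trauma values, and its log2FC was -0.04 (SE 0.19, limma adjusted p = 0.914). The Spry2 values of 7.39, 10.6, 8.23 and 9.10 FPKM gave -0.18 (limma adjusted p = 0.379), and the Spry1 values of 2.15, 1.90, 3.10 and 2.60 FPKM gave -0.16 (limma adjusted p = 0.497). Spred1 stood at 17.3, 17.0, 15.1 and 16.7 FPKM, 1.07-fold the Trauma level (log2FC 0.10, limma adjusted p = 0.162). Its GC content of 41.2% is the lowest of the members. After a correction for GC content its log2FC was -0.02 (limma adjusted p = 0.851). Spred2 stood at 17.9, 17.6, 16.4 and 15.8 FPKM, with a log2FC of -0.10 (limma adjusted p = 0.27). Both Spred genes overlapped between the scratched groups.

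**Figure D2:**
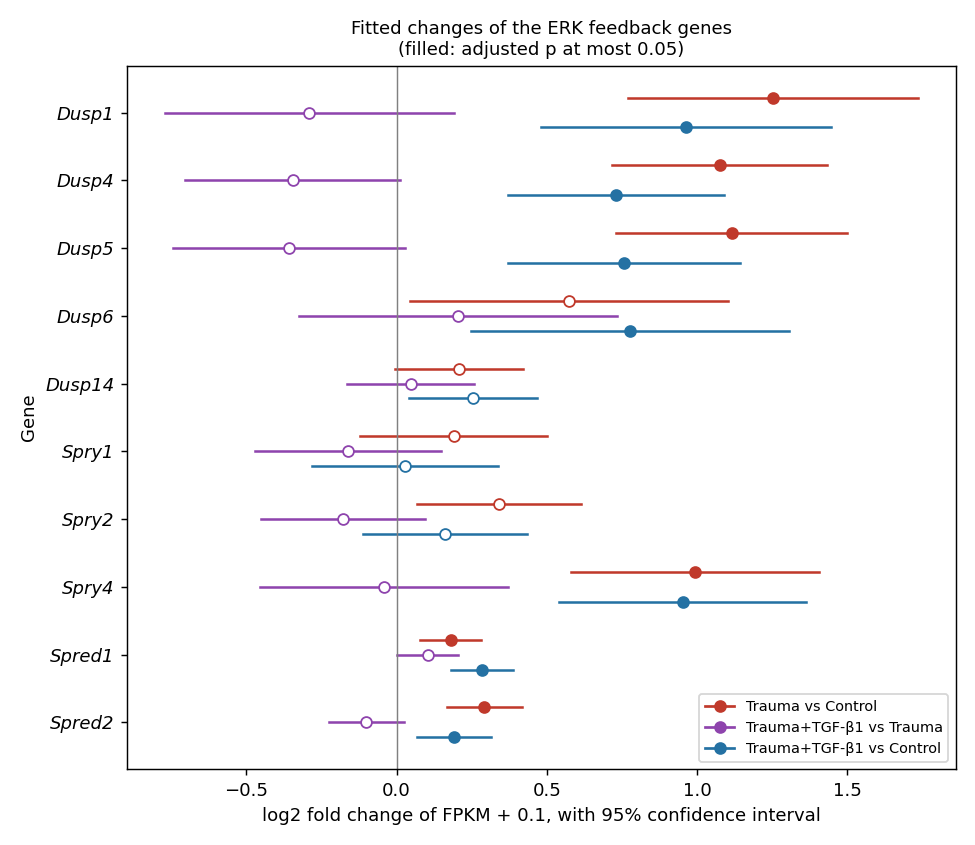
Fitted log2 fold change of FPKM + 0.1 (horizontal axis) with its 95% confidence interval for each gene in the 3 comparisons, filled where the limma adjusted p was at most 0.05. The points for either scratched group against Control lie to the right of 0, though the intervals of Dusp14 and Spry1 in Trauma and of Spry1 and Spry2 in Trauma+TGF-β1 include 0. Every interval of Trauma+TGF-β1 against Trauma includes 0 except that of Spred1, which begins at 0.0021.

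The third comparison, Trauma+TGF-β1 against Control, shares its Control libraries with the first. It called 7 members up and none down: the 6 genes called in Trauma, and Dusp6. Among all genes tested 6.85% rose and 16.3% changed in either direction. Of the 10 members 6 had all 4 Trauma+TGF-β1 libraries above all 4 Control libraries, as 7.94% of the genes tested did. The median log2FC of the members was 0.51, against 0.0031 over all genes tested.

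The log2FC values against Control in treated cultures were 0.96 for Dusp1 (adjusted p = 0.0133 in limma), 0.73 for Dusp4 (adjusted p = 0.0121) and 0.76 for Dusp5 (adjusted p = 0.0142). Dusp6 rose by 0.78 on the log2 scale (SE 0.24, limma adjusted p = 0.0481), from 5.73 to 8.31 FPKM in Control to 9.66 to 15.2 FPKM in Trauma+TGF-β1, with no overlap. This call lies at the threshold: 14 of 28 alternative fits made it (adjusted p from 0.00385 to 0.121 in limma), and with 1 library left out it held in 3 of 12 fits. That Dusp6 was called here and not in Trauma does not show a difference between the scratched groups, for which the direct test gave an adjusted p of 0.63 in limma. Spry4 rose by 0.95 on the log2 scale (limma adjusted p = 0.00648), Spred1 by 0.28 (limma adjusted p = 0.00247) and Spred2 by 0.19 (limma adjusted p = 0.0385). Spred2 overlapped Control in the lowest treated library, 15.8 against the highest Control value of 15.9 FPKM, and was called in 15 of 28 alternative fits (adjusted p from 0.0168 to 0.108) and in 5 of the 12 that left out 1 library. After a correction for GC content, 4 members were called against Control in place of 7, and 2012 of 14699 genes in place of 2449 of 15016. The log2FC of Dusp6 was then 0.73 and that of Spred2 0.18, close to their uncorrected values, while that of Spred1 was 0.16 in place of 0.28. Dusp14, Spry1 and Spry2 were not called, at 0.25, 0.03 and 0.16 on the log2 scale with limma adjusted p of 0.0971, 0.918 and 0.413.

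**Figure D3:**
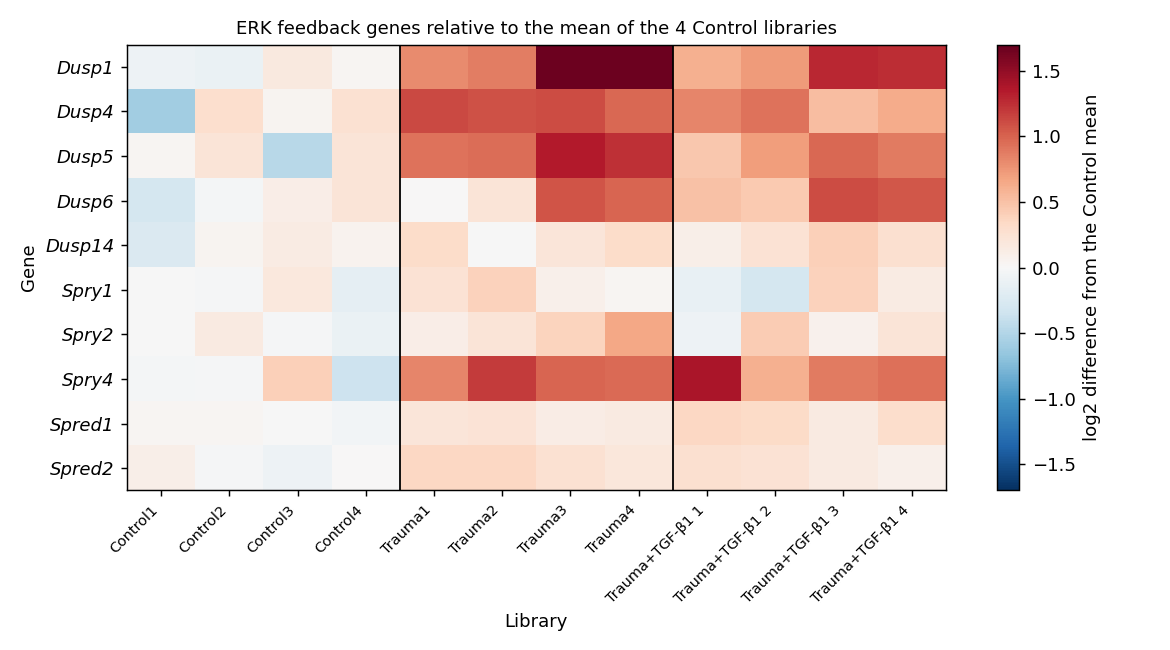
Log2 difference of each gene (rows) in each library (columns) from the mean of the 4 Control libraries, red above and blue below. The Dusp1 row reaches 1.67 in Trauma libraries 3 and 4 against 0.81 and 0.87 in libraries 1 and 2, and Dusp6 follows the same libraries, while the Dusp4 row in Trauma stays between 0.98 and 1.12.

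The members differed among themselves in how their libraries varied within a group. In both scratched groups libraries 3 and 4 lay above libraries 1 and 2 for Dusp1, Dusp5 and Dusp6. Spred1 and Spred2 had the opposite order, with libraries 1 and 2 above libraries 3 and 4 in both groups. The order was not limited to scratched cultures. In Control libraries 3 and 4 were also the higher pair for Dusp1 and Dusp6, but not for Dusp5. Libraries 1 and 2 were the higher pair in Control for Spred1, but not for Spred2. Dusp4 had neither order in Trauma, while in Trauma+TGF-β1 libraries 1 and 2 were above libraries 3 and 4. Spry1 went opposite ways, with libraries 1 and 2 above libraries 3 and 4 in Trauma and below them in Trauma+TGF-β1. In Spry2 libraries 3 and 4 were the higher pair in Trauma alone, in Dusp14 they were so in Trauma+TGF-β1 alone, and Spry4 had neither order in either group. Over the 12 libraries the deviations from the group means correlated at r = 0.95 between Dusp1 and Dusp6, and at r = 0.51 between Dusp1 and Dusp5. Between Dusp1 and Spred2 the same r was -0.84, and between Dusp1 and Dusp4 it was -0.24. These are descriptions over 12 libraries that share 3 group means, with no test. The labels name no batch, and whether equal numbers mark a shared culture or day is not given in the sources used here.

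**Figure D4:**
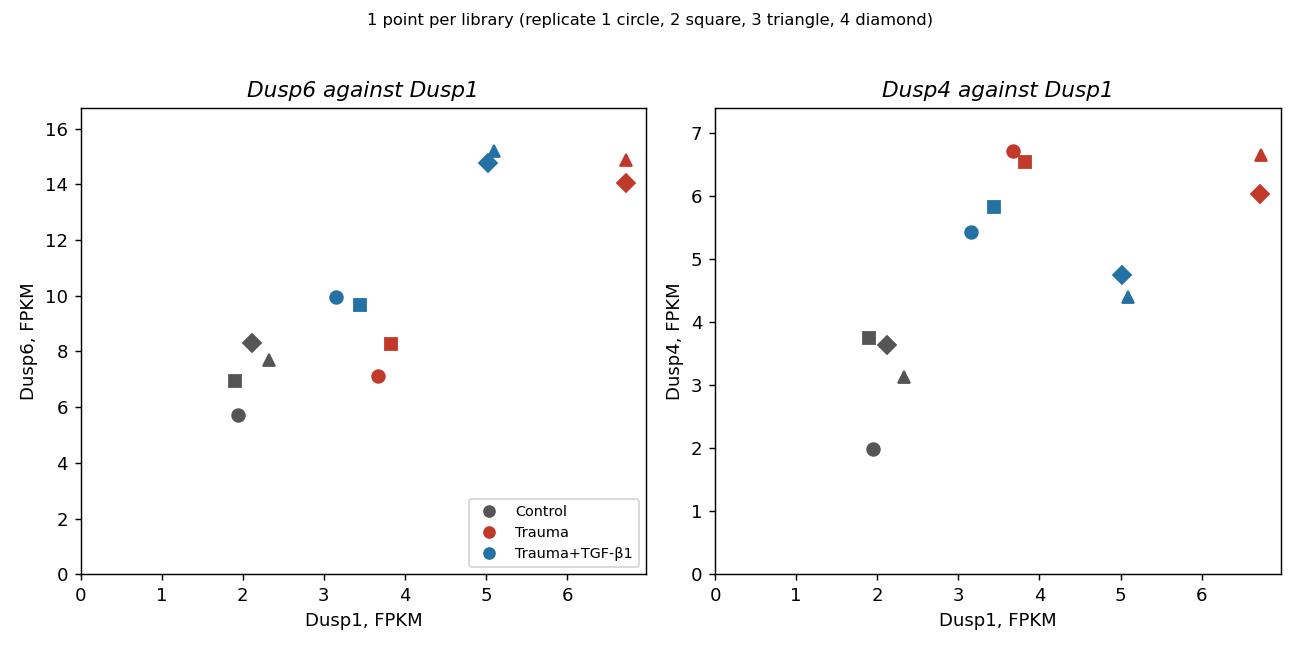
FPKM of Dusp6 (left) and Dusp4 (right) against FPKM of Dusp1, with 1 point for each of the 12 libraries, coloured by group and with a symbol for each replicate number. Libraries 3 and 4 of both scratched groups stand at 14.0 to 15.2 FPKM of Dusp6, above all other libraries. In Dusp4 the Trauma libraries lie together at 6.03 to 6.72 FPKM, and Trauma+TGF-β1 libraries 3 and 4, at 4.40 and 4.74 FPKM, are the lowest of the scratched libraries.

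Fits on libraries 1 and 2 alone and on libraries 3 and 4 alone, chosen after seeing this order, restate it and are no test of it. The log2FC of Trauma against Control was 0.94 and 1.57 for Dusp1, and 0.29 and 0.86 for Dusp6. For Dusp4 it was 1.25 and 0.90, and for Spry4 1.03 and 0.96.

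The genes around the feedback inhibitors were taken from lists of the pathway. Of all genes tested 5.82% changed in either direction in Trauma against Control, and 12.3% in Trauma+TGF-β1 against Trauma. The counts of the lists below stand beside these shares and were not tested against them. In Trauma+TGF-β1 against Trauma the log2 fold change was related to GC content across genes (Spearman rho = -0.465). A correction for GC content left 818 of 14699 genes called in that comparison, in place of 1842 of 15016. The values of the listed genes below are those of the main fit, without this correction. Of 17 further phosphatase, Sprouty and Spred genes tested, 2 rose in Trauma over Control and none fell. Spred3, the remaining Spred gene, was at 2.21 ± 0.0875 FPKM in Control and 4.91 ± 0.579 FPKM in Trauma (SD, n = 4), and its log2FC was 1.12 (limma adjusted p = 6.17e-05). The difference from Spred1 and Spred2 was not tested. Dusp3 rose by 0.23 on the log2 scale (limma adjusted p = 0.0137). None of the 17 was called between Trauma+TGF-β1 and Trauma. The median log2FC of this list in Trauma was 0.04.

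A list of other inhibitors, of which 23 were tested, held genes for mRNA-destabilizing proteins beside inhibitors of receptors, Ras or ERK. In Trauma 3 of the 23 rose and none fell. The genes that rose were Zfp36l2 and Zfp36l1, which encode mRNA-destabilizing proteins (log2FC values 0.55 and 0.63), and Lrig1, which encodes an inhibitor of receptor kinases (0.20). Of the 37 cascade genes, 2 rose in Trauma, the adaptor gene Shc3 (0.75) and Pea15a, whose product holds ERK in the cytoplasm (0.38), and 1 fell, the exchange factor gene Sos2 (-0.30). Between the scratched groups 5 cascade genes rose, Sos2 among them (0.43), and 6 fell, including the scaffold gene Lamtor2 (-0.41).

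Receptors and ligands of the pathway also changed in Trauma. Of 16 receptor tyrosine kinase genes tested 4 rose and 1 fell. The fibroblast growth factor receptor genes Fgfr1, Fgfr2 and Fgfr3 rose by 0.63, 0.52 and 0.35 on the log2 scale, and the neurotrophin receptor gene Ntrk2 by 0.15. Fgfr3 also stands among the astrocyte markers. Of 28 genes tested from a list of ligands and members of their families, 2 rose and 3 fell. Bdnf, the neurotrophin that activates the Ntrk2 product, rose by 0.97 (limma adjusted p = 0.00206), while the ligand gene Kitl fell by 0.26. Fgf13, whose product belongs to the family but is not a secreted ligand, fell by 0.17. In Trauma+TGF-β1 against Trauma, 1 receptor gene and 2 ligand genes rose and 1 ligand gene fell. Hbegf, a ligand of the epidermal growth factor receptor, rose by 0.57 (limma adjusted p = 0.00524) and Kitl by 0.27.

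Other transcriptional outputs of ERK were tested as a further list. Of 22 tested 7 rose in Trauma and none fell, with a list median of 0.38 on the log2 scale. Etv5, which encodes an ETS factor, rose by 0.67, Ccnd1, which encodes cyclin D1, by 0.85, and Fosl2, which encodes an AP-1 subunit, by 0.93. Between Trauma+TGF-β1 and Trauma 3 of these 22 fell and none rose, where 12.3% of all genes tested were called in either direction. Ccnd1 fell by 0.73 (limma adjusted p = 0.00391), Etv4 by 0.61 (limma adjusted p = 0.00462) and Etv5 by 0.30 (limma adjusted p = 0.0282). The products of Dusp1 and Dusp4 also act on the JNK and p38 pathways. Of 21 genes of these pathways none rose and 1 fell in Trauma, Map2k4 by 0.19, where 5.82% of all genes tested changed. With TGF-β1, Map2k4 rose by 0.27, and Mapkapk5 and Mapk8ip1 fell.

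Known targets of TGF-β1 were compared in the same libraries. Of 12 tested feedback genes and targets of TGF-β1, 2 rose against Trauma and 1 fell: Ccn2 rose by 1.59 (limma adjusted p = 3.39e-07), Pmepa1 by 0.52 (limma adjusted p = 0.00144), and Id3 fell by 0.61. In Trauma against Control 3 of the 12 rose, Ccn2 among them (0.83), and 2 fell. In Trauma+TGF-β1 against Control 4 of the 12 rose, Ccn2 and Pmepa1 among them, and 1 fell, Smad7. Of all genes tested 16.3% changed in either direction in that comparison.

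Over the 12 libraries the genes whose profile was most like the mean standardized profile of the 10 members were Jun (Pearson r = 0.986), Dhrs1 (0.977), Vgf (0.967), Pbk (0.958) and Igfbp2 (0.957). On deviations from the group means, which leave out the differences between groups, the same r was 0.714 for Jun, 0.635 for Dhrs1, 0.345 for Vgf, 0.658 for Pbk and 0.389 for Igfbp2. These 5 are the highest of all tested genes outside the members, so the values are a description of the ranking and carry no test.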

How the data were processed

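Poly(A) RNA-seq of mouse cortical neurons was analysed from 1 gene table. Per the methods of the study and the submitters' processing notes, the authors aligned reads with HISAT2 2.0.5 to mm10, counted reads per gene and deposited FPKM values. The deposited FPKM times gene length were whole multiples of a step in 100% of genes (tolerance 0.02), which gave reads per gene. Median-of-ratios factors over genes with no 0 were equal in all 12 libraries, so the deposited values were already on one scale. The main test was limma 3.58.1 (R 4.3.3) with a trend on log2(FPKM divided by a median-of-ratios factor over the tested genes, plus 0.1), which understates changes of low genes, for 15016 genes with a mean of at least 0.5 FPKM, all 12 libraries in 1 fit, Benjamini-Hochberg over all genes within a comparison, threshold 0.05. The code was tested on simulated data. Alternatives changed pseudocount, filter, scaling, model and libraries.

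All 10 members were named. From each other list up to 4 called genes with the smallest adjusted p in Trauma against Control or Trauma+TGF-β1 against Trauma were named. Smad7 was named outside this rule. The immediate early genes of the closing section were chosen after their values were seen. Other ERK output genes there were named by their correlation with Dusp1, whether called or not. Members and lists were chosen with earlier results of these data known. Promoters came from RefSeq (GRCm38.p6). Gene coordinates are those of the deposited table. Counting errors and read floors cover counting error only. The comparison of the list of other inhibitors between Trauma+TGF-β1 and Trauma is not reported here.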

Additional observations from a re-analysis of the deposited data

How the results depend on the processing

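Over 28 alternative fits Dusp1, Dusp4, Dusp5 and Spry4 were called in Trauma and in Trauma+TGF-β1 against Control in every one, as was Spred2 in Trauma. Members called in Trauma against Control numbered 6, and 5 to 8 under the alternatives (5 to 6 with 1 library left out). The count of 8 was that of the main fit without the adjustment of p. Spred1 was lost in 15 fits. Dusp6 was gained in 3, those that took the replicate number as a block. Against Control, Trauma+TGF-β1 called 7, and 4 to 8 under the alternatives (5 to 7 with 1 library left out). The count was 4 after a GC correction and 8 without the adjustment of p. Between Trauma+TGF-β1 and Trauma the count was 0, and 1 without the adjustment of p (Spred1) or with only the groups compared in the fit (Dusp4). With 1 library left out it was 0 to 1, with 1 without Control library 1 (Dusp4, adjusted p = 0.0258) or without Trauma+TGF-β1 library 3 (Spred1, limma adjusted p = 0.0433). On libraries 1 and 2 alone, with 2 libraries in each group, the counts were 0, 0 and 0, where 2, 3 and 89 of all 14908 genes tested were called. On libraries 3 and 4 alone they were 3, 0 and 2, where 150, 28 and 424 of 15156 genes were called (in order: Trauma over Control, the treated over the untreated scratched group, and the treated group over Control). This split was chosen after the order of the libraries in Dusp1 and Dusp6 had been seen, so its counts are no test of either gene.

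Signs changed for members that were not called. In Trauma+TGF-β1 against Trauma, Spred1 was -0.0228 after a GC correction, with or without the block. With 1 library left out Dusp14 ranged from -0.0254 to 0.0967 (below 0 without Trauma library 2 or Trauma+TGF-β1 library 3), and Spry4 from -0.186 to 0.074 (above 0 without library 2 of either group). Spry2 was 0.0139 on libraries 1 and 2 alone, and Spry1 was -0.529 on libraries 1 and 2 alone and 0.203 on libraries 3 and 4 alone, against -0.162 over all libraries. In Trauma+TGF-β1 against Control, Spry1 was -0.0298 under quantile normalization and -0.197 on libraries 1 and 2 alone, and ranged from -0.0934 to 0.135 with 1 library left out (below 0 without Control library 4 or Trauma+TGF-β1 library 3 or 4). The cause was not tested.

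With the replicate number as a block, 7, 0 and 7 members were called in the same order of comparisons, Dusp6 in Trauma being the gain (0.57, limma adjusted p = 0.0239). The block moved no count of members by more than 1.5 times. Same-numbered libraries deviated together with r above 0.1 in 2 of 12 pairs of libraries (r from -0.0691 to 0.229). Of 24 best matches, each the best of 4 libraries, 10 were of the own number. Whether this is more than random matching gives was not tested. The labels name no pairs, so the numbers were not taken as pairs in the main fit. Whether a factor shared by number acted on Dusp1 or Dusp6 was not tested. Across genes the log2 fold change of Trauma+TGF-β1 against Trauma was related to GC content (Spearman rho = -0.465), and the members' median GC content was 51.3% against 49.6% for the genes tested. At 44 to 81 reads in Control, Spry4 is the member that depth limits together with Dusp5.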

Other observations

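The order of libraries seen for Dusp1 and Dusp6 was also present in immediate early genes that ERK induces, which were looked at after those values had been seen. Egr1, which encodes a zinc finger factor, was at 6.68, 5.45, 26.9 and 23.5 FPKM in Trauma libraries 1 to 4. In Trauma+TGF-β1 libraries 1 to 4 it was at 5.74, 4.32, 20.0 and 16.3 FPKM, against 4.20, 3.97, 5.60 and 5.18 FPKM in Control libraries 1 to 4. Libraries 3 and 4 of both scratched groups were thus far above the Control range, while libraries 1 and 2 were at or near it. Within the narrower Control range libraries 3 and 4 were the higher pair of Egr1 as well. Fos, an AP-1 subunit gene, was at 5.71, 5.99, 23.4 and 22.5 FPKM in Trauma and at 5.25, 5.78, 18.1 and 13.7 FPKM in Trauma+TGF-β1, against 1.05 to 1.63 FPKM in Control. For Fos all scratched libraries lay above Control, and libraries 3 and 4 were again the highest.

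Of the 22 other ERK output genes tested, 5 had deviations from the group means that correlated with those of Dusp1 above 0.8 over the 12 libraries: Egr1 (r = 0.966), Fos (0.965), Fosb (0.915), Egr3 (0.815) and Srf (0.812). The median over the 22 was 0.286. Etv5, Ccnd1 and Etv4, which were lower in Trauma+TGF-β1 than in Trauma, had r of -0.356, 0.195 and 0.0164. Phlda1 had the lowest r, -0.812. These are descriptions over libraries that share depth and group means, and no cause of the order was tested.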
